A study of Rattus norvegicus with 8 samples.

Results

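The genes described here are 8 neuronal cytoskeletal and growth-associated genes, Nefl, Nefh, Ina, Tubb3, Gap43, Stmn1, Stmn2 and Stmn3, measured in rat CA3 hippocampal neurons. They were found on the array by gene name, with the endings for predicted or mapped genes removed and case ignored, which gave 7 of the 8 genes at 8 array features. Ina is listed on the array under its older name Inexa and was added through its RefSeq accession, after the names in the files had been seen, so that all 8 genes were covered by 9 of the 41012 features besides controls. By these rules Stmn1 had 2 features and each other gene had 1. The paper that reported these data also lists a stathmin 1 entry as higher in dying than surviving neurons. That entry has an identifier other than that of these 2 Stmn1 features and was not examined here. The feature of Gap43 was printed in 10 spots and the others in 1 spot each.

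Male Sprague-Dawley rats were given a moderate fluid percussion injury to the brain or a sham injury, or were left untreated (naïve), and brains were taken 24 h later. Neurons of the CA3 field were cut out of stained frozen sections by laser. In injured rats, neurons with the degeneration stain Fluoro-Jade were collected as dying and adjacent neurons without it as surviving, about 600 per pool from at least 3 rats. Amplified RNA of 8 pools, 2 in each of the naïve, sham, surviving and dying groups, was hybridised to single-colour Agilent whole-genome rat arrays, and the age of the rats is not given in the sources used here. The labels name 2 amplification kits without saying which pool had which. Rats are pooled and not named for each array, so that a p-value here measures the spread between pools, and whether the surviving and dying pools of one number came from the same rats is not stated.

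Neurofilament light (Nefl) and heavy (Nefh) chains and alpha-internexin (Ina) assemble with the medium chain into the intermediate filaments that set the calibre of axons. Tubb3 encodes a beta-tubulin largely restricted to neurons, and stathmins bind tubulin dimers and promote the disassembly of microtubules, Stmn1 in the cytosol and Stmn2 and Stmn3 anchored to membranes of the Golgi and growth cone. Gap43 is a membrane protein of growth cones and presynaptic terminals that is known to be made at high levels during axon growth and after nerve injury.

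All levels below are log2 values of the background-corrected signal divided by the median of its array, so that 0 is the array median. The median signal before scaling was 28.8 and 22.7 (naïve), 16.5 and 16.4 (sham), 52.4 and 48.3 (surviving) and 19.4 and 53.0 (dying). The naïve and sham arrays lay on 1 slide and the arrays of injured rats on another, read with another version of the extraction protocol, so an effect of injury and one of the slide cannot be separated in any comparison with sham neurons. The scaling itself moved the whole array: over all features tested the median difference was -0.43 between surviving and sham neurons and -0.47 between dying and sham neurons, but 0.35 and 0.25 when arrays were divided by their 75th percentile. Differences from sham are therefore also read against that median. Between surviving and dying neurons, which shared a slide, the median was 0.15, and between sham and naïve neurons it was 0.40.

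The array of dying replicate 1 stood apart from that of dying replicate 2. The median absolute gap between the 2 arrays of a group was 0.81 for dying neurons, against 0.70 for naïve, 0.33 for sham and 0.37 for surviving neurons, over features well above background on both. For the genes described here other than Stmn2, differences between surviving and dying neurons are given below without each dying array. For genes of the related lists this is done for some only.

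Among the filament genes, Nefl stood at 6.0 and 6.96 (naïve), 7.16 and 6.78 (sham), 7.13 and 6.25 (surviving) and 0.99 and 6.0 (dying). Dying replicate 1 was far below every other array, while dying replicate 2 was level with the lowest naïve array and just under the lower surviving one. Before scaling, the Nefl signal was 38.6 in dying replicate 1 and 3390 in dying replicate 2, with mean spot brightness 2.26 and 75.3 times the local background. Nefh stood at 2.82 and 3.13 (naïve), 2.71 and 3.42 (sham), 2.86 and 2.74 (surviving) and -2.27 and 3.09 (dying). Its spot was well above background on 7 of the 8 arrays and not on dying replicate 1, the same array on which Nefl was low, and dying replicate 2 lay among the uninjured arrays. Ina stood at 8.19 and 8.82 (naïve), 8.89 and 9.05 (sham), 8.82 and 8.48 (surviving) and 7.33 and 8.22 (dying). Both dying arrays were below both sham and both surviving arrays for Ina, and the higher of them lay within the naïve range.

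The gap between the dying arrays was -5.01 for Nefl, replicate 1 minus replicate 2. Over the 29192 features well above background on at least 1 dying array, among them some not well above it on the other, 0.603% had a gap as low as that of Nefl, and the median gap was 0.23. For Nefh no exact gap is given, since its spot was not well above background on dying replicate 1. For Ina the gap was -0.90, and 24.9% of features had one as low.

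Tubb3 stood at 8.98 and 9.35 (naïve), 9.86 and 9.45 (sham), 9.04 and 8.69 (surviving) and 7.52 and 6.87 (dying). At this scaling the groups formed a ladder with dying neurons clearly at the bottom, surviving neurons overlapping naïve ones, and sham neurons at the top. The difference between surviving and sham neurons was gone under 75th percentile scaling (-0.014). It turned with the series table (0.091) and normexp (0.07). Gap43 stood at 10.32 and 10.55 (naïve), 11.18 and 10.81 (sham), 10.00 and 9.95 (surviving) and 9.02 and 8.86 (dying). For Gap43 no array of any group overlapped one of another group at this scaling, and the order from high to low was sham, naïve, surviving and dying. The step from naïve to surviving neurons was gone under 75th percentile scaling (0.26 between sham and naïve and -0.24 between surviving and sham neurons) and turned with the series table and normexp. The 10 spots of Gap43 gave a spread within an array: their SD on the log2 scale, from mean brightness less local background, was 0.14 to 0.15 on the 4 uninjured arrays, 0.50 and 0.26 on the surviving and 0.62 and 0.69 on the dying arrays. The spots thus scattered more on the arrays of injured rats, where 0 and 2 of the 10 spots in surviving and 1 and 3 in dying neurons were marked non-uniform and left out.

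Stmn3 stood at 10.83 and 11.36 (naïve), 11.71 and 11.31 (sham), 10.72 and 10.53 (surviving) and 9.97 and 9.87 (dying). Dying neurons were lowest and surviving neurons next, and only naïve and sham neurons overlapped, but as for Gap43 the step from naïve to surviving neurons was gone under 75th percentile scaling (0.12 and -0.11) and turned with the series table and normexp. Stmn2 stood at 10.37 and 10.95 in naïve and 11.42 and 10.96 in sham neurons. Its single spot was marked non-uniform on both surviving arrays and on dying replicate 2, which left 8.30 in dying replicate 1 as the only value from injured neurons. With the marked spots kept, Stmn2 read 10.23 and 10.12 in surviving neurons and 9.31 in dying replicate 2, so that both dying arrays were lowest and both surviving arrays next at this scaling. Without the marked spots it has no surviving value under 75th percentile scaling, so that order was not examined there.

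Stmn1 followed another order. At its brighter feature it stood at 9.16 and 9.74 (naïve), 9.42 and 9.37 (sham), 7.55 and 7.23 (surviving) and 8.70 and 6.41 (dying). At its other feature the values were 6.31 and 7.26, 6.56 and 6.25, 3.96 and 4.28, and 5.25 and 3.30 in the same order. At both features all 4 arrays of injured neurons were below all 4 uninjured arrays, and the 2 dying arrays lay on either side of the surviving ones, with dying replicate 1 the higher. The gap between the dying arrays at the brighter feature was 2.29, in the direction opposite to that of the neurofilament chains, and 5.05% of features had a gap as high.

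**Figure D1:**
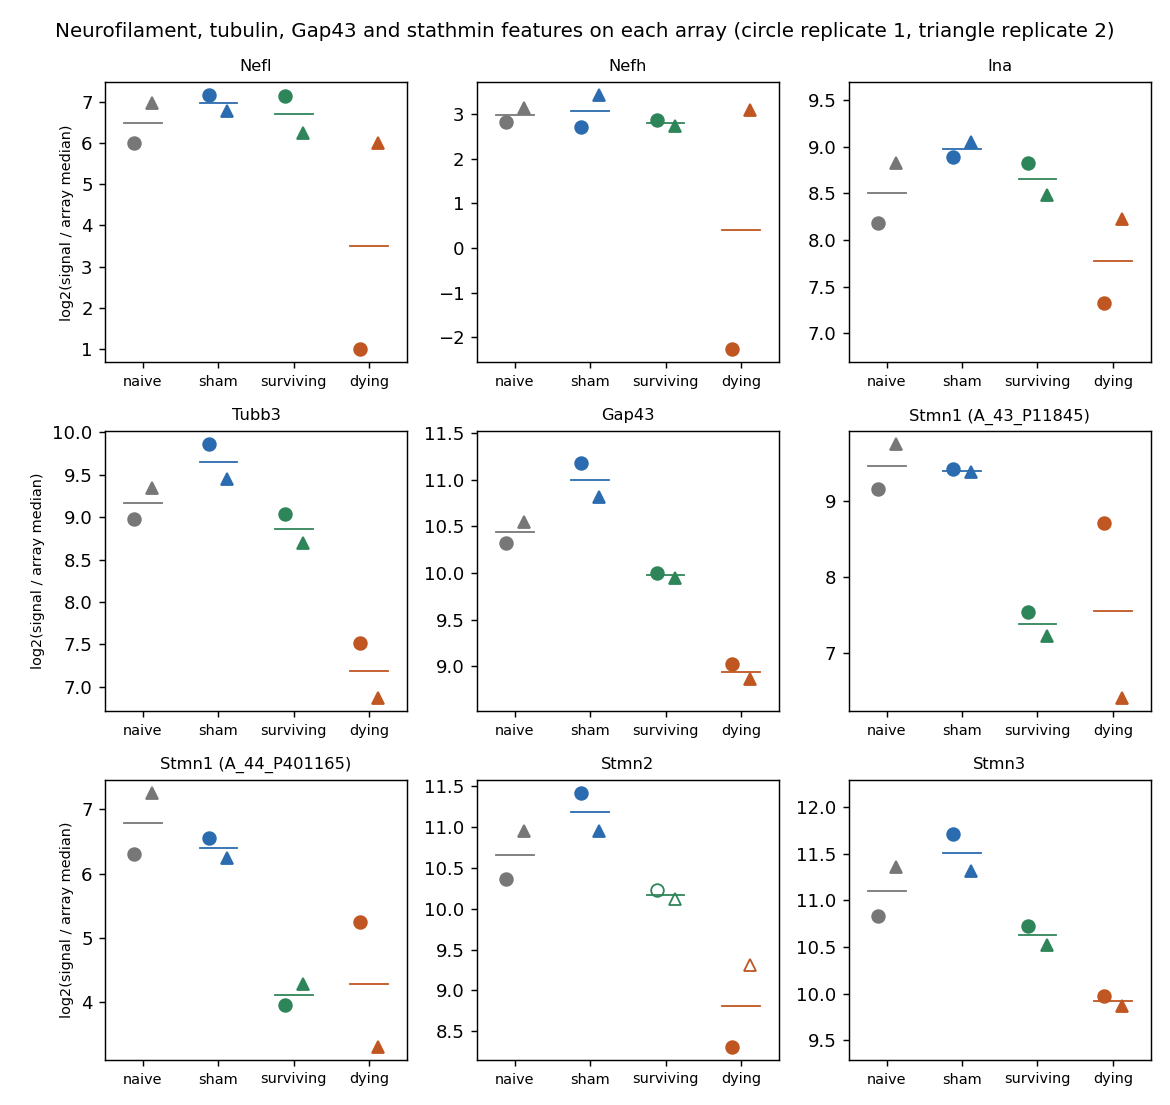
Log2 signal over the array median at the 9 features on each of the 8 arrays, with replicate 1 as circles, replicate 2 as triangles, open symbols for spots marked non-uniform and bars for group means. Nefl is low on dying replicate 1 alone (0.99), the array on which Nefh was not well above background, Gap43 separates all 4 groups at this scaling, and Stmn1 is low on both surviving and both dying arrays.

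The means ± SD of Gap43 (n = 2 each) were 10.44 ± 0.16 in naïve, 10.99 ± 0.26 in sham, 9.97 ± 0.04 in surviving and 8.94 ± 0.11 in dying neurons. For Nefl they were 6.48 ± 0.68, 6.97 ± 0.27, 6.69 ± 0.62 and 3.5 ± 3.54, so that the dying group had a spread larger than any difference between groups.

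In dying against sham neurons, all 9 features were lower in dying neurons, and all 9 also lay below the median of all features tested. Tubb3, Gap43, Stmn2, Stmn3 and the second feature of Stmn1 passed an adjusted p of 0.05, which is 5 of 9 features. Of all 25624 features tested, 7338 (28.6%) passed with a lower level in dying neurons. Tubb3 fell by 2.46 ± 0.48 (SE), a 5.51-fold lower level, with adjusted p = 0.00599, and Gap43 fell by 2.05 ± 0.44, 4.15-fold, with adjusted p = 0.00835. Stmn3 fell by 1.59 ± 0.46 (adjusted p = 0.0239) and the second Stmn1 feature fell by 2.12 ± 0.68 (adjusted p = 0.0359). Stmn2 fell by 2.89 ± 0.64 with 1 dying array in the fit (adjusted p = 0.0145), and differed by -2.38 ± 0.52 with its marked spots kept (adjusted p = 0.0098). The brighter Stmn1 feature differed by -1.83 ± 0.72 (adjusted p = 0.0667), Nefl by -3.47 ± 1.33 (adjusted p = 0.0626) and Ina by -1.19 ± 0.51 (adjusted p = 0.0859), and these 3 did not pass. Nefh did not pass either (adjusted p = 0.145), and no exact difference is given for it, since 1 of its 2 dying spots was not well above background and it was tested through the sham arrays. Both dying arrays were below both sham arrays at 7 of the 8 features with all 4 arrays, Nefh being the exception, beside 45.7% of 25448 features.

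None of these calls was free of the setting. Without sham replicate 1, none of the 9 features passed in dying against sham neurons, and without sham replicate 2, Tubb3 and Gap43 alone did, while the number of all features past the threshold went from 11103 to 2993 and 4986. With normexp background correction no feature on the array passed. Under 75th percentile scaling and quantile normalization Tubb3, Gap43 and Stmn2 passed, where 18.8% and 15.9% of all features passed lower, and every one of the 9 features was again lower in dying neurons and below the median of all features. The sizes were smaller there: -1.74 and -1.37 for Tubb3, -1.33 and -1.14 for Gap43, -0.87 and -0.75 for Stmn3 and -0.47 and -0.07 for Ina. Over features well above background on all 4 arrays, Nefl (adjusted p = 0.0378) and the brighter Stmn1 feature (adjusted p = 0.0447) passed as well. Of all features tested there, 36.9% passed lower. With no filter on background the second Stmn1 feature did not pass (adjusted p = 0.059), where 16.8% of all features passed lower. In a fit of these 2 groups alone, Stmn3 (adjusted p = 0.0543) and the second Stmn1 feature (adjusted p = 0.063) did not pass, which left 3 of 9 where 23.1% of all features passed lower. Without dying replicate 1, Nefl differed from sham by -0.97, Nefh by 0.03 and the Stmn1 features by -2.98 and -3.10. Without dying replicate 2, Nefl differed by -5.98, Ina by -1.64 and the Stmn1 features by -0.69 and -1.15. Nefh then rested on a spot not well above background.

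In surviving against sham neurons, all 8 features tested had lower means in surviving neurons and 0 passed in limma, although 3 had an unadjusted p under 0.05. Of all 26906 features, 3052 (11.3%) passed with a lower level in surviving neurons. Both surviving arrays lay below both sham arrays at 6 of the 8 features, beside 49.0% of 26835 features. The difference was -2.0 ± 0.72 (adjusted p = 0.0877) and -2.28 ± 0.69 (adjusted p = 0.0542) at the 2 Stmn1 features, -1.02 ± 0.44 for Gap43 (adjusted p = 0.131), -0.89 ± 0.45 for Stmn3 and -0.79 ± 0.48 for Tubb3. Nefl, Nefh and Ina differed by -0.28, -0.27 and -0.32, all 3 above the median of -0.43, and the other 5 features lay below it. The sign of the filament genes followed the scaling: their differences were 0.50, 0.51 and 0.46 under 75th percentile scaling, where the median was 0.35. Gap43, Stmn3 and Tubb3 came close to 0 under that scaling (-0.24, -0.11 and -0.014) and with the series table (-0.11, -0.0062 and 0.091), and Gap43 read -0.0051 under normexp. In a fit of these 2 groups alone, Gap43 and both Stmn1 features passed, 3 of 8 where 28.3% of all features passed lower. At the 2 Stmn1 features the difference stayed below 0 under each scaling and background setting tried.

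In surviving against dying neurons, 0 of 27402 features (0.0%) passed in limma, and 5774 had an unadjusted p under 0.05. None of the 8 features with a value passed either, and 3 of them, Nefl, Tubb3 and Gap43, had an unadjusted p under 0.05. Both surviving arrays were above both dying arrays for Nefl, Ina, Tubb3, Gap43 and Stmn3, which is 5 of the 7 genes tested, beside 30.4% of 27206 features. The difference, surviving minus dying, was 1.67 ± 0.48 (95% interval 0.57 to 2.78, adjusted p = 0.134) for Tubb3, 1.03 ± 0.44 (0.02 to 2.04, adjusted p = 0.23) for Gap43 and 0.70 ± 0.46 (-0.35 to 1.75, adjusted p = 0.41) for Stmn3. It was 3.20 ± 1.35 for Nefl (adjusted p = 0.226) and 0.87 ± 0.51 for Ina (adjusted p = 0.362), and has no exact size for Nefh (adjusted p = 0.364), measured above background on 1 of the 2 dying arrays. At the 2 Stmn1 features it was -0.17 ± 0.73 and -0.16 ± 0.69. Stmn2 with its marked spots kept differed by 1.37 ± 0.53 (adjusted p = 0.203). Under normexp background correction Tubb3, Gap43, Stmn3 and Ina differed by 3.38, 2.61, 2.44 and 2.49, with no feature past the threshold. An exact permutation test of 2 arrays against 2 could not give a two-sided p below 0.333. Over the 6 genes with a brightest feature well above background on all 4 arrays, 5 had a higher mean in surviving neurons, with a median difference of 0.95 against 0.03 over the 21449 features so measured, of which 51.5% were higher in surviving neurons.

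Sham and naïve neurons were not separated by the test: 0 of 20736 features (0.0%) passed in limma, 1014 had an unadjusted p under 0.05, and quantile normalization gave 1. A fit of these 4 arrays alone gave 263, and none of the 9 features was among them. Sham means were higher for 7 of the 8 genes at the brightest feature, by 0.09 to 0.56, beside a median of 0.40 over all features, and Stmn1 differed by -0.06.

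**Figure D2:**
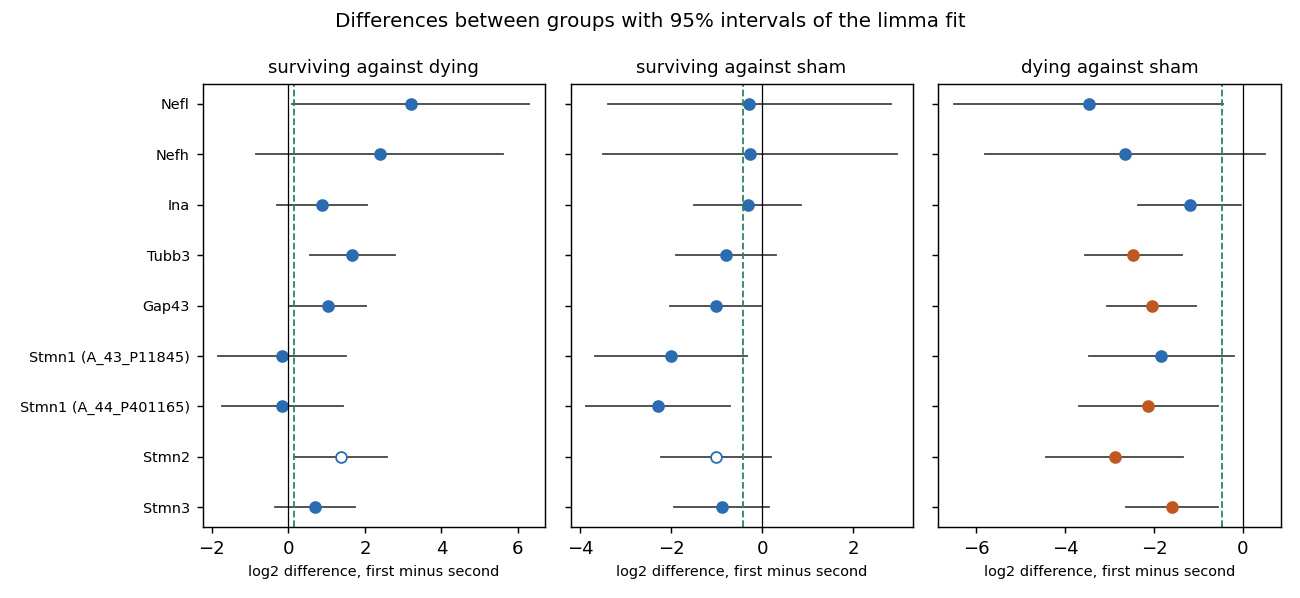
Log2 differences (x axis) at the 9 features in 3 comparisons, with 95% intervals from limma, orange for adjusted p under 0.05, open symbols where spots marked non-uniform were kept and a dashed line at the median of all features tested. Orange points occur only in dying against sham neurons, the Nefh values for dying neurons include a spot not well above background, and the Stmn1 features are the lowest ones in surviving against sham neurons (-2.0 and -2.28).

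Leaving out 1 dying array changed the picture for the filament genes and for Stmn1. Without dying replicate 1, Nefl differed by 0.69 and Nefh by -0.30 between surviving and dying neurons, and without dying replicate 2 Nefl differed by 5.70 (adjusted p = 0.00941). Nefh passed there too, but against a single spot not well above background, so that its size is not given. The lone dying array is then assumed to vary like the other groups. That second fit called 5636 features in all, where the fit with both arrays called 0. For Ina the difference was 0.43 without dying replicate 1 and 1.32 without dying replicate 2. At the 2 Stmn1 features the difference was 0.98 and 0.81 without dying replicate 1 and -1.31 and -1.13 without dying replicate 2. Tubb3 ranged from 1.35 to 2.0, Gap43 from 0.95 to 1.11 and Stmn3 from 0.65 to 0.75 over the same 2 fits, none past the threshold.

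**Figure D3:**
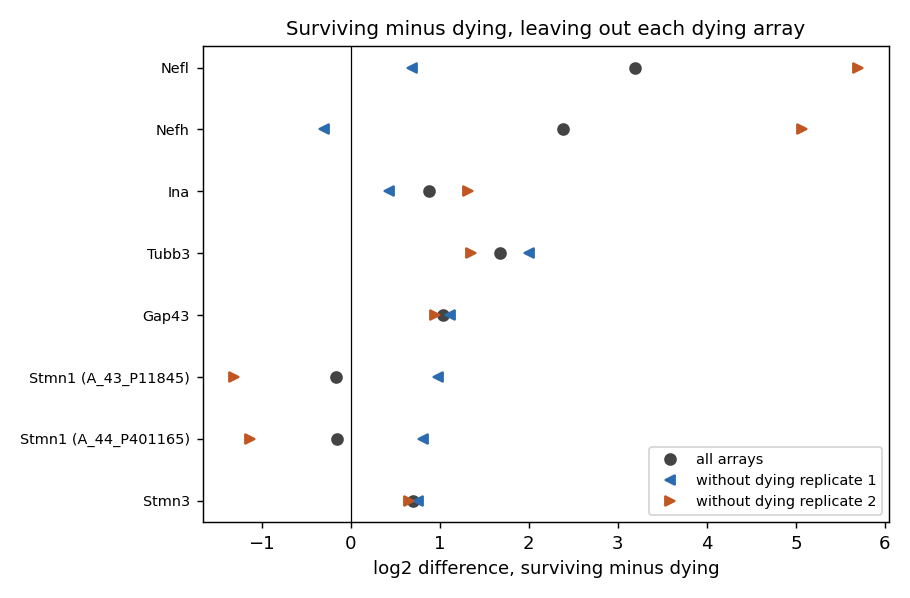
Log2 difference, surviving minus dying (x axis), at 8 features with all arrays (circles) and without each dying array (triangles). Tubb3, Gap43 and Stmn3 stay between 0.65 and 2.0, while Nefl moves by about 5, Nefh without dying replicate 2 rests on a spot not well above background, and both Stmn1 features change sign.

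Ratios of 2 genes on the same array do not depend on the value each array is divided by. So 7 pairs, chosen after the values had been seen, were set against the mean of the sham arrays. Quantile normalization and normexp can change such ratios and were not applied to them. The log2 ratio of Stmn1 to Stmn3 was 0.45 and 0.50 (naïve), -1.06 and -1.18 (surviving) and 0.85 and -1.34 (dying). Stmn1 was thus lower relative to Stmn3 on both surviving arrays and on dying replicate 2 than on any uninjured array, and higher on dying replicate 1. The ratio of Tubb3 to Stmn3 was 0.01 and -0.16 (naïve), 0.17 and 0.02 (surviving) and -0.60 and -1.15 (dying). That of Gap43 to Stmn3 was 0.01 and -0.29 (naïve), -0.20 and -0.06 (surviving) and -0.43 and -0.49 (dying). Relative to Stmn3, both Tubb3 and Gap43 were lower on the dying arrays than on all other arrays. The ratio of Ina to Stmn3 was -0.10 and 0.00 (naïve), 0.64 and 0.49 (surviving) and -0.10 and 0.90 (dying), higher on both surviving arrays than on the 4 uninjured ones. The ratio of Nefl to Ina lay between -0.27 and 0.31 on 7 arrays and was -4.33 on dying replicate 1. The ratio of Nefh to Ina was 0.77 on dying replicate 2 and is not given for dying replicate 1, where Nefh was not well above background. The ratio of Stmn2 to Stmn3, with marked spots kept, lay between -0.24 and 0.03 on 7 arrays and was -1.34 on dying replicate 1. Nefl and Stmn2 thus shared dying replicate 1 as the array where they were low relative to their partner gene.

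**Figure D4:**
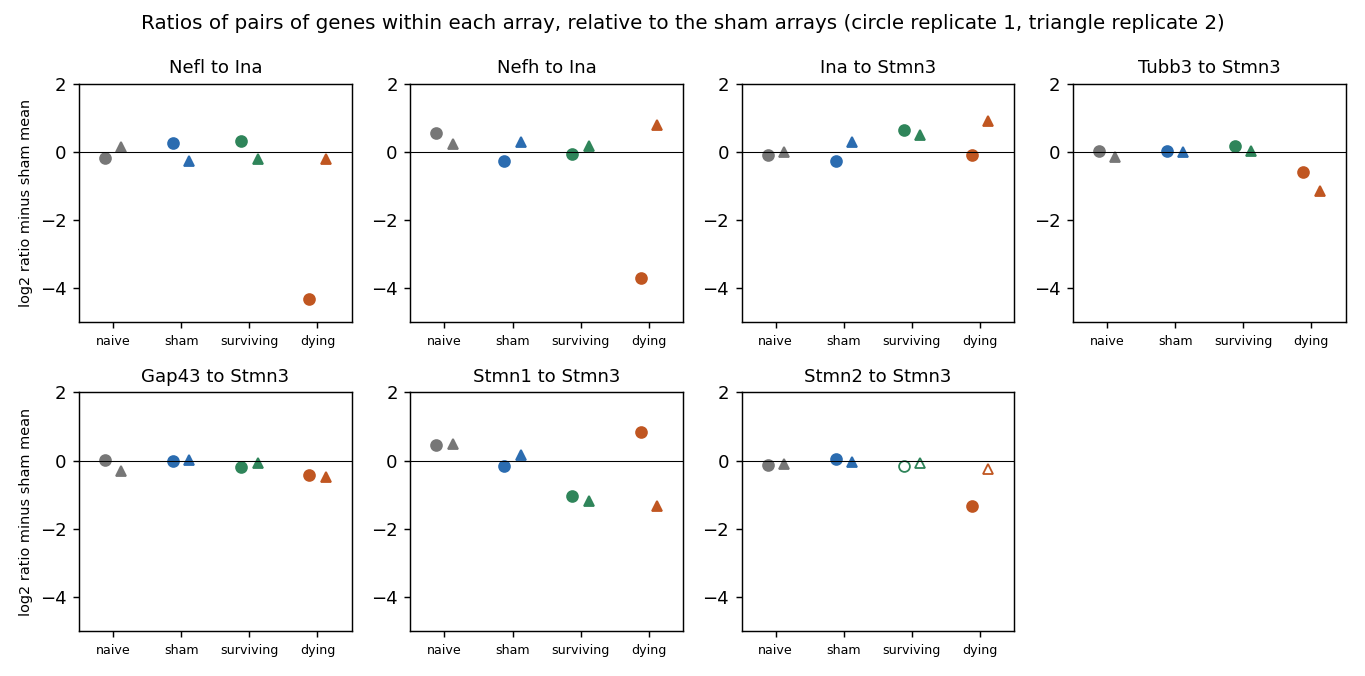
Log2 ratio of 2 genes on the same array minus its mean over the sham arrays (y axis), by group, with replicate 1 as circles, replicate 2 as triangles and open symbols where a Stmn2 spot was marked non-uniform. Nefl to Ina is low on dying replicate 1 only (-4.33), the Nefh spot on that array was not well above background, and Stmn1 to Stmn3 is low on both surviving arrays (-1.06 and -1.18) and on dying replicate 2.

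Promoters are shown for the 4 of the 8 genes found in the RefSeq promoter table of the rat assembly GRCr8. All 4 had lower means in dying than sham neurons. For Tubb3 and Stmn3 both dying arrays were the lowest. The dying arrays lay on either side of the surviving ones for Stmn1, and the higher dying array lay within the naïve range for Ina. Each sequence is the 250 bases before the start of the gene, read 5′ to 3′ on its own strand, with GC boxes (GGGCGG) and CCAAT boxes (CCAAT) on either strand in capitals, and no match overlapped another. The positions are chr1:255837879-255838128 on the plus strand for Ina, chr19:68365437-68365686 on the plus strand for Tubb3, chr5:151964929-151965178 on the plus strand for Stmn1 and chr3:188802495-188802744 on the minus strand for Stmn3.
Ina: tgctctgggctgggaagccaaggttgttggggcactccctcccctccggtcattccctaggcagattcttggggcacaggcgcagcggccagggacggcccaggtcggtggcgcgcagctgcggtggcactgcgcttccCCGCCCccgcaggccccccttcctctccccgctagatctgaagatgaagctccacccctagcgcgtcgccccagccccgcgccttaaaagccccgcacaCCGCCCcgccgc
Tubb3: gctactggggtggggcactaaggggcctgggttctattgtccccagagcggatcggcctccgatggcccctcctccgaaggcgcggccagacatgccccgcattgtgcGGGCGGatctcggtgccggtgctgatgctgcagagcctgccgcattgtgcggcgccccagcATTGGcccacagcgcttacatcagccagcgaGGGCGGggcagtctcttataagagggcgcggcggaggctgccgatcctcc
Stmn1: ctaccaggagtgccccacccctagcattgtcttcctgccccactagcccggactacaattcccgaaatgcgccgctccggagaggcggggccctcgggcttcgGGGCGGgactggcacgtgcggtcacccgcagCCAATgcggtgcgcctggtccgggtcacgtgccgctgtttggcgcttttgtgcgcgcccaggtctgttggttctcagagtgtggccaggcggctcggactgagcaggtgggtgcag
Stmn3: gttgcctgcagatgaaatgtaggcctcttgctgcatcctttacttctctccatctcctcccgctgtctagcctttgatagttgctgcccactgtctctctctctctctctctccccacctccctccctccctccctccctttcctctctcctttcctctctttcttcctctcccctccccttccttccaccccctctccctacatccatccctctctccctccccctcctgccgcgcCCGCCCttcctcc
Each of the 4 held a GC box, 2 in Ina and Tubb3 and 1 in Stmn1 and Stmn3, where 30.5% of 33469 promoters of that length held at least 1. Tubb3 and Stmn1 held 1 CCAAT box each, and 34.0% of all promoters held one. None of the 4 held TATAAA on either strand, which 12.9% of all promoters did. E-boxes (CANNTG) numbered 3 in Stmn1, 1 in Ina and Stmn3 and 0 in Tubb3, and 65.5% of all promoters held one. The GC content was 70.8% in Ina, 68.0% in Tubb3, 67.6% in Stmn1 and 59.2% in Stmn3, against a median of 51.2% over all promoters. These matches describe the letters only.

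Lists of related genes were compared between surviving and dying neurons over the genes well above background on all 4 arrays of injured neurons. The other intermediate filament and axonal scaffold genes were so measured for 10 of 12 listed. Of these, 8 had a higher mean in surviving than dying neurons, with a median of 0.84, and 0 passed. The medium neurofilament chain Nefm, the partner of Nefl and Nefh, stood at 9.26 and 8.95 in sham, 7.27 and 7.36 in surviving and 5.19 in dying replicate 1, its spot on dying replicate 2 being marked non-uniform and left out. Nefm was thus lower on both surviving arrays than on both sham arrays, which Nefl was not. Prph, the peripherin gene of another neuronal intermediate filament, and Nes, the nestin gene of neural progenitors and reactive glia, ran the other way: they differed by -2.60 ± 0.59 and -1.94 ± 0.45 between surviving and dying neurons, and both dying arrays were above both surviving arrays. Nes stood at 3.98 and 3.89 (sham), 6.46 and 6.43 (surviving) and 8.54 and 8.22 (dying). Without dying replicate 1 the median of this list was -0.15, and with its marked spot kept Nefm differed by 1.23 between surviving and dying neurons instead of 2.12. Ank2, an ankyrin that ties spectrin to membrane proteins, differed by 1.62 ± 0.51. In dying against sham neurons Nefm (on 1 dying array), Ank2, Ank3 and Bin1 passed lower, 4 of 10 genes beside 28.6% of all features. Prph and Nes passed higher there, as did 14.7% of all features. In surviving against sham neurons Nefm and Ank2 passed lower, beside 11.3% of all features, and Nes higher, beside 6.48%.

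Of 17 tubulins and tubulin cofactors listed, 12 were measured on all 4 arrays. The median difference between surviving and dying neurons was 0.61, 9 of 12 had a higher mean in surviving neurons, and 0 passed. Under quantile normalization the median was 0.27. Tuba1c and Tubb6, an alpha- and a beta-tubulin, differed by 1.70 ± 0.64 and 1.63 ± 0.78, and Tbca and Tbce, cofactors in tubulin folding, by 1.25 ± 0.48 and 0.86 ± 0.67. Tuba1c stood at 8.96 and 8.91 (surviving) and 6.37 and 8.10 (dying), and Tubb6 at 6.90 and 6.09, and 3.69 and 6.03. Tbca stood at 7.33 and 7.06, and 6.09 and 5.80, and Tbce at 1.175 and 2.42, and 0.14 and 1.72. For Tuba1c, Tubb6 and Tbce, dying replicate 2 thus lay nearer the surviving arrays than dying replicate 1 did. Between dying and sham neurons Tuba1c, Tuba8, Tubb2b, Tubb6, Tbca and Tbce passed lower, as did 28.6% of all features, and 0 passed higher. Tubg1 passed lower too, but was not well above background on dying replicate 1 and was tested through the sham arrays, where it was high. In surviving against sham neurons Tbce alone passed, lower, beside 11.3% of all features.

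Among microtubule-associated and collapsin response mediator proteins, 14 of 17 listed were measured on all 4 arrays, 11 had a higher mean in surviving than dying neurons, the median was 0.50 and 0 passed. Under quantile normalization the median was 0.28. Mapre3, which binds growing microtubule ends, differed by 2.15 ± 0.54, Stmn4, the remaining stathmin gene, by 1.62 ± 0.88, and the large microtubule-binding proteins Map1b and Map1a by 1.0 ± 0.46 and 0.81 ± 0.63. Stmn4 stood at 2.86 and 4.43 (sham), 2.80 and 3.05 (surviving) and 0.25 and 2.36 (dying), so that, as for Stmn2 and Stmn3, both dying arrays were the lowest. The size of its difference rested largely on dying replicate 1, since dying replicate 2 lay much nearer the surviving arrays. Between dying and sham neurons Map1a, Map1b, Dclk1, Dpysl2, Mapre3 and Stau1 passed lower, as did 28.6% of all features, and 0 passed higher. Dpysl5 passed lower against sham in both dying and surviving neurons and Dpysl3 higher in surviving neurons, but each was tested only through the group where it was high: Dpysl5 was well above background on 1 of 2 arrays in either injured group, and Dpysl3 on neither sham array.

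Among growth cone and axon growth genes, 12 of 20 listed were measured on all 4 arrays, 10 had a higher mean in surviving than dying neurons, the median was 0.88 and 0 passed. Without dying replicate 1 it was 8 of 12 with a median of 0.54, beside 0.20 over all features so measured. Nrn1, which encodes the neurite-promoting protein neuritin, differed by 1.99 ± 0.47, Ncdn, encoding neurochondrin, by 1.40 ± 0.62, and Robo2, a receptor for the guidance cue Slit, by 1.38 ± 0.52. Marcksl1, related to the protein kinase C substrate Marcks, differed by -1.41 ± 0.56. Between dying and sham neurons L1cam, Robo2, Fez1, Ncdn and Nrn1 passed lower, as did 28.6% of all features, and Marcksl1 higher, as did 14.7%. In surviving against sham neurons Robo2 passed lower, as did 11.3%. Cntn1 and Cfl1 also passed lower in dying neurons, but were not well above background on dying replicate 1 and were tested through the sham arrays, where they were high.

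Injury-induced regeneration genes had the opposite sign. Of 14 measured on all 4 arrays, 11 had a higher mean in dying than surviving neurons, the median was -0.57 and 0 passed. Under normexp background correction 2 had a higher mean in dying neurons and the median was 0.89, so that the sign of this list depended on the background correction. Atf3, a transcription factor induced by axon injury, stood at 2.40 and 0.37 (sham), 3.54 and 3.87 (surviving) and 6.03 and 5.76 (dying). The neuropeptide gene Gal stood at 2.18 and 1.62 (sham), 5.71 and 5.73 (surviving) and 7.64 and 7.61 (dying). For both, sham, surviving and dying neurons were separated without overlap, in the order opposite to that of Gap43. Cd44, a hyaluronan receptor, differed by -1.31 ± 0.86 and the transcription factor gene Klf7 by 1.67 ± 1.15 between surviving and dying neurons, but Cd44 by 0.11 under normexp and Klf7 by -0.060 without dying replicate 1. In dying against sham neurons Atf3, Hspb1, Gal and Cd44 passed higher, 4 of 14 where 3765 of all 25624 features did, and in surviving against sham neurons Atf3, Hspb1 and Gal, 3 of 16 where 1743 of all 26906 did, and 0 passed lower in either.

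Regulators of these genes, among them RNA-binding proteins and kinases that act on stathmins and neurofilaments, had a higher mean in surviving than dying neurons for 11 of 11 measured on all 4 arrays, with a median of 0.77, and 0 passed. The c-Jun N-terminal kinase genes Mapk8 and Mapk10 differed by 1.33 ± 0.51 and 1.80 ± 1.11, Cdk5, a kinase of neurofilament tails, by 1.24 ± 0.56, and Tardbp, whose product binds neurofilament light chain and Stmn2 transcripts, by 0.97 ± 0.67. Without dying replicate 1, 8 of 11 had a higher mean in surviving neurons and the median was 0.20, the same as over all features so measured, with Tardbp at -0.047 and Mapk10 at -0.044. In dying against sham neurons Elavl2, Elavl3, Tardbp, Mapk8, Cdk5 and Ppp3ca were among 7 of 11 that passed lower, beside 28.6% of all features, and in surviving against sham neurons Ppp3ca was among 2 of 12, beside 11.3%. At its brightest feature, Rest was not well above background on any of the 8 arrays. Under quantile normalization the medians of the filament and regulator lists were 0.47 and 0.45, and under normexp the medians of these 5 lists other than the injury-induced one were 1.38 to 1.80, where that of all features so measured was 0.57.

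**Figure D5:**
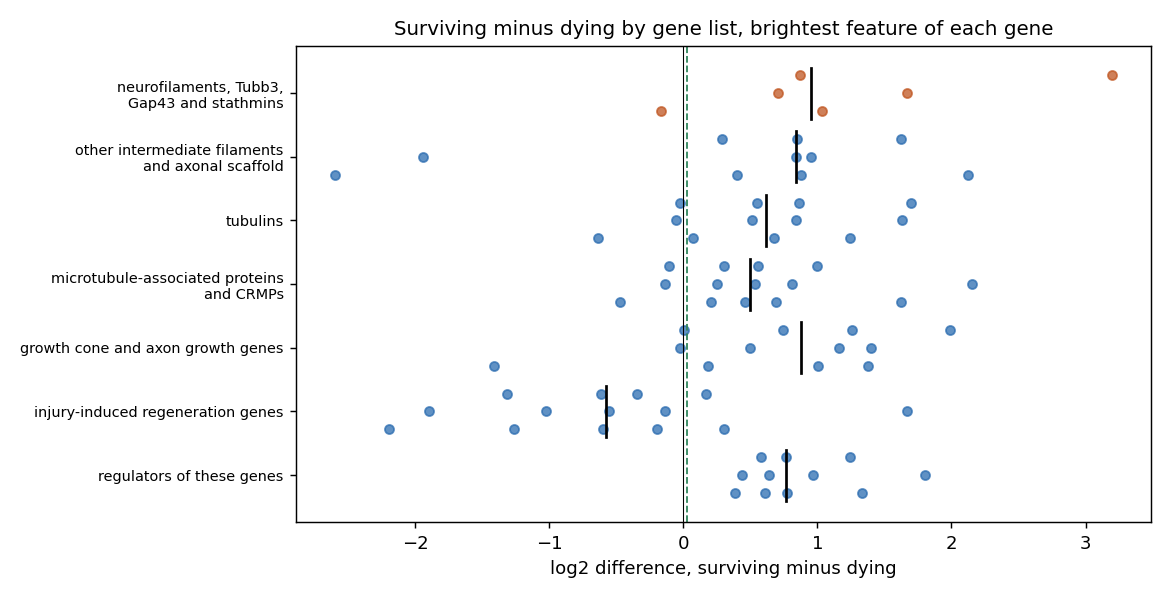
Log2 difference, surviving minus dying (x axis), at the brightest feature of each gene well above background on all 4 arrays of injured neurons, by list, with black bars at list medians and a dashed line at the median of all features so measured (0.03). The injury-induced regeneration genes have a median of -0.57 and each other list one of 0.498 or more. Without dying replicate 1 the filament list has a median of -0.15 and the regulators one of 0.20, beside 0.20 over all features so measured.

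The mean profile of 6 of the 8 genes, those with a brightest feature well above background and measured on all 8 arrays (Nefl, Ina, Tubb3, Gap43, Stmn1 and Stmn3), was 0.18 and 0.73 (naïve), 0.97 and 0.72 (sham), 0.14 and -0.22 (surviving) and -1.48 and -1.03 (dying) after each gene was centred. Among 7833 other gene names the profiles most like it over the 8 arrays were those of Vps53, Psma1, Rheb, Usp11 and the gene listed as RGD1305622, with Pearson's r of 0.997 each. The arrays fall into 4 groups, which such an r reflects, and 24.1% of the gene names had an r over 0.9. This mean profile is therefore shared by many of the gene names compared.

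The labelled cell type was checked against marker genes. Of 6 CA3 pyramidal neuron markers on the array (Slc17a7, Camk2a, Grik4, Neurod2, Bok and Crym), all were well above background on each array except Grik4 on dying replicate 1. Prox1, a marker of dentate granule cells, was not well above background on any array, and Wfs1, a marker of CA1, was so on all 8. With these 2 included, the list summed, in multiples of the array median, to 840 and 1230 (naïve), 1860 and 2010 (sham), 1240 and 1570 (surviving) and 1310 and 1280 (dying), most of it from Crym (1290 and 1140 on the dying arrays). On dying replicate 1, where Nefl was low, Camk2a stood at 1.74, Bok at 1.19 and Slc17a7 at -0.18, against 3.78 to 5.11, 3.31 to 4.65 and 1.88 to 4.06 on the other 7 arrays. Neurod2 (3.92) was also below the other arrays of injured rats (6.13 to 7.03), though above naïve replicate 1 (3.67). Crym and Wfs1 (1.98) lay within the range of the other arrays. The 7 interneuron markers summed to 1370 and 2030, 1800 and 1870, 2090 and 2250, and 5630 and 1650 in the same order, of which Cck made 4990 on dying replicate 1. Cck, Sst and Vip were highest on that same array (12.28, 8.48 and 7.83) and Pvalb was lowest there (5.83). The other interneuron markers were not raised there. Slc32a1 (4.67) and Gad2 (-0.57) lay within the range of the other arrays, and Gad1 was well above background on neither dying array. Microglia and macrophage markers (8, led by C1qb) summed to 106 and 233 (naïve), 243 and 218 (sham), 244 and 287 (surviving) and 1510 and 888 (dying). Astrocyte markers (7, led by Slc1a3) summed to 680 and 798, 1230 and 803, 431 and 450, and 1010 and 473 in the same order, and endothelium or pericyte markers (6, led by Pdgfrb, with Tek not well above background on any array) to 49.4 and 81.3, 78.6 and 60.1, 63.8 and 50, and 283 and 103. C1qa, C1qb and Cd68 were highest on the 2 dying arrays, where Tubb3, Gap43, Stmn2 and Stmn3 were lowest, and the other 5 microglial markers were not. Their part in these differences was not tested. Fewer neurons in a pool and less RNA per neuron cannot be told apart.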

How the data were processed

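RNA was measured on 8 arrays, 2 pools in each of 4 groups. Per the file headers, the authors deposited processed signal intensities from Agilent Feature Extraction, background-subtracted and not normalized between arrays, with marks of spots well above background or non-uniform. The deposited series table holds the signal divided by 1 constant per array and was an alternative. Spots marked non-uniform were dropped, the rest averaged by probe, each array divided by its median over 41012 probes, values under 0.01 set to 0.01 and log2 taken. Tests used limma 3.58.1 (R 4.3.3) with 1 mean per group over all 8 arrays and covered probes that both arrays of either group showed well above background, with Benjamini-Hochberg adjustment within a comparison and a threshold of 0.05. The number of arrays limits the precision. The script was tested on simulated data. The genes and lists were chosen with earlier results of these data known. The brightest probe stood for a gene. Genes named from the lists were, with some left out, those past the threshold and the 4 with the largest difference between surviving and dying neurons among those well above background on all 4 arrays of injured neurons. The 5 most alike genes were ranked by Pearson's r. Alternatives covered scaling, background correction, filters, the samples fitted, blocking and leaving out arrays.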

Additional observations from a re-analysis of the deposited data

How the results depend on the processing

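Counts of features past the threshold moved with the setting, and the cause was not tested unless named. For surviving against dying neurons the count of 0 became 2 with the series table and ranged from 0 to 5636 when 1 array was left out, the highest without dying replicate 2. With the replicate number as a block it was 0 there and 0 for sham against naïve neurons, 3359 instead of 4795 for surviving against sham and 10334 instead of 11103 for dying against sham neurons, where Nefl passed with this replicate block (adjusted p = 0.0399). The correlation of replicate differences between groups was -0.194 to 0.071, so that no pairing by replicate number was seen. This does not tell whether pools of one number shared rats. A crossed pairing of surviving and dying replicates, chosen after seeing the data, gave 0.

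For surviving against sham neurons the 4795 became 12188 with only the 2 groups compared, 0 with normexp (2494 at an unadjusted p under 0.05), 2880 over features well above background on all 4 arrays, where fewer were tested, and 289 to 527 with 1 array left out. Of the 4795, 1743 were higher, against 4141 of 5670 under 75th percentile scaling, 2243 of 3780 under quantile normalization and 4408 of 5851 with the series table. For dying against sham neurons the 11103 became 0 with normexp (2342 unadjusted), 7120 over features well above background on all 4 arrays, and 2993 to 13113 with 1 array left out, 7381 without dying replicate 1. Of the 11103, 3765 were higher, against 6985 of 11803 under 75th percentile scaling, 5264 of 9351 under quantile normalization and 7360 of 11687 with the series table. For sham against naïve neurons the 0 became 263 with only the 2 groups compared and 1 under quantile normalization, and was 0 to 0 with 1 array left out.

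Signs turned as follows. In surviving against sham neurons, Nefl read 0.50 (75th percentile), 0.65 (quantile), 0.84 (normexp), 0.60 (series table) and -0.72 to 0.16 with 1 array left out. Nefh read 0.51, 0.51, 0.54 and 0.61 in the same 4 settings and -0.63 to 0.089 with 1 array left out, and Ina 0.46, 0.45, 0.84 and 0.56. Tubb3 read 0.07 with normexp and 0.091 with the series table, and Stmn3 0.18 with normexp. In sham against naïve neurons, Nefh read -0.21 (75th percentile), -0.20 (quantile), -0.28 (series table), and -0.27 to 0.44 with 1 array left out, among them -0.07 without naïve replicate 1, and under quantile normalization Ina read -0.024 and Stmn3 -0.10. There the Stmn1 features read 0.93 and 0.54 with normexp and -0.35 to 0.24 and -0.85 to 0.091 with 1 array left out. In surviving against dying neurons they read 1.52 and 1.31 with normexp and -1.31 to 0.98 and -1.13 to 0.81 with 1 array left out, the second 0.0021 without surviving replicate 1. With 1 array left out, the fitted value of Nefh went from -0.30 to 5.07 in surviving against dying and from -5.33 to 0.028 in dying against sham neurons, where 5.07 and -5.33 rest on a dying spot not well above background and are no measured sizes, and in surviving against dying neurons Klf7 read -0.060 to 3.40, Tardbp -0.047 to 1.98 and Mapk10 -0.044 to 3.65, each turning without dying replicate 1. The spread of a lone array left in a group is taken to be that of the other groups. With normexp, Cd44 read 0.11.

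Stmn2 had no value for surviving neurons once marked spots were dropped, so only the series table and the fit with those spots kept hold it there. Signal over background limits Nefh, not well above background on dying replicate 1.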

Other observations

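The array also carries features for predicted transcripts described as similar to these genes, read after their values had been seen. The one similar to stathmin 1 stood at 7.77 and 8.56 (naïve), 7.88 and 7.79 (sham), 5.79 and 5.28 (surviving) and 4.10 and 4.62 (dying). All 4 arrays of injured neurons were below all 4 uninjured arrays, as at both Stmn1 features, but dying replicate 1 was the lowest array here and the higher of the dying arrays there. It fell by 2.30 ± 0.50 in surviving against sham neurons (adjusted p = 0.0217) and by 3.48 ± 0.50 in dying against sham neurons (adjusted p = 0.00237). Whether this feature and those of Stmn1 bind the same transcripts was not tested.

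Of the 2 features for a transcript similar to neurofilament heavy chain, the one well above background on all 8 arrays stood at 6.06 and 6.79 (naïve), 6.98 and 6.77 (sham), 6.71 and 6.36 (surviving) and 5.02 and 5.56 (dying). Its dying arrays differed by far less than those of Nefh, and both lay below all other arrays. It fell by 1.58 ± 0.49 in dying against sham neurons (adjusted p = 0.0308) and differed by 1.24 ± 0.49 between surviving and dying neurons (adjusted p = 0.203).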
